A study of Mus musculus with 9 samples.

Results

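Transport of free amino acids and small peptides across the kidney tubule was followed through 33 genes, chosen by symbol and all found among 22180 genes with a single symbol on the array. Each symbol is represented by its brightest probe set, by the mean of all 9 arrays. The question was how the RNA of these transporters differed between diabetic mice given irbesartan, untreated diabetic mice and non-diabetic controls.

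The arrays came from male mice, 1 array per mouse and 3 mice per group. The first group was db/db mice, 10 weeks old at the start, given irbesartan by mouth for 12 weeks. The untreated db/db mice were of the same age and received vehicle for the same time. The db/m mice received vehicle for 12 weeks as well, and their age is not in the labels. Mice of the db/db genotype lack the long, signalling form of the leptin receptor in every tissue and become obese and hyperglycaemic. The db/m mice carry 1 mutant copy and stay lean. Obesity, hyperglycaemia and the loss of signalling through that form therefore cannot be told apart in this model. Irbesartan blocks the angiotensin II type 1 receptor. No db/m mice given irbesartan are among the samples, and the labels give no dose. By the labels the tissue was kidney and the platform an Affymetrix whole-transcript array for mouse genes, while the methods name renal cortex, another Affymetrix array and another age at the start. The values are log2 RMA signals, a normalized brightness per probe set, so a difference of 1 is a doubling of signal.

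Nearly all amino acids filtered by the glomerulus are taken back in the proximal tubule. Sodium-, proton- or exchange-driven carriers on the brush border bring them into the cell, peptidases on the same membrane cut peptides for them, and exchangers and uniporters on the basolateral side pass them to the blood. Other members of the same families feed the cells themselves with glutamine, leucine or serine, or load medullary cells with betaine and taurine, which balance the salt around them.

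A gene was called when its absolute log2 fold change in limma, a linear model over all genes with moderated variances, was above 0.5 and its Benjamini-Hochberg adjusted p over all 22180 genes was under 0.25. With irbesartan, against untreated db/db kidneys, 1 of the 33 transporters was called, 1 higher and 0 lower (3.03%, against 1.01% of all genes). In untreated db/db kidneys, against db/m, 5 were called, 3 higher and 2 lower (15.2%, against 2.3% of all genes). In treated db/db kidneys, against db/m, 8 were called, 6 higher and 2 lower (24.2%, against 3.89% of all genes). The transporters are bright, with 1 of the 33 below the median probe set mean of 3.39, whereas all genes include many dim ones. When only the 13962 genes above that median were tested, 1.61%, 3.49% and 5.77% of them were called in the 3 comparisons. The same 1, 5 and 8 transporters were called. Both comparisons with db/m use the same db/m arrays, so their values are given side by side and not counted as separate evidence.

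The median log2 fold change of the transporters was -0.04, 0.09 and -0.02 in these 3 comparisons, beside -0.01, 0.01 and -0.00 over all genes. Their median absolute log2 fold change was 0.15, 0.20 and 0.19, beside 0.11, 0.11 and 0.12 over all genes. The 3 arrays of one group did not overlap those of the other in 10 transporters with irbesartan against untreated db/db (30.3%, against 21.8% of all genes). The same held in 15 between untreated db/db and db/m (45.5%, against 16.8%) and in 14 between treated db/db and db/m (42.4%, against 23.5%). These medians and shares over all genes include the dim genes and were not computed for bright genes alone. Of the 8 calls in treated db/db against db/m, 6 were carriers of neutral amino acids outside the brush border and basolateral roles, as were 2 of the 5 in untreated db/db against db/m. None of the 6 brush border carriers of neutral and imino acids was called in any of the 3 comparisons.

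The third untreated db/db mouse stood apart from the others in its group. The neutrophil genes S100a8, S100a9 and Ly6g measured 6.08, 5.10 and 4.25 in it, against 2.05 and 2.16, 3.01 and 3.34, and 2.69 and 2.78 in the other untreated mice. Lcn2, a marker of tubule injury that neutrophils also hold, was 7.87, against 5.44 and 5.13. For the 10 transporters called in at least 1 comparison its rank among the untreated db/db mice varied. It was the highest for Slc6a12, Slc7a5, Slc7a6 and Slc38a2 and the lowest for Slc7a13 and Slc15a1. For Slc36a4, Slc7a12 and Slc1a4 it lay between the others, and for Slc1a5 it equalled the first mouse at 7.08. Any 1 of 3 mice is the highest or the lowest for many genes, and the share over all genes was not computed. Without it 1, 5 and 9 transporters were called in the 3 comparisons, and of the 5 in untreated db/db minus db/m 4 were the same genes, with Slc15a1 in place of Slc7a6. What part of the transporter values goes with these cells was not tested. In the fit that weighted arrays by quality, the third db/m mouse had the lowest weight of the 9 arrays (0.38). The third untreated db/db mouse came next (0.8). Both comparisons with db/m use that db/m array, and without it 1, 4 and 8 transporters were called in the 3 comparisons.

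**Figure D1:**
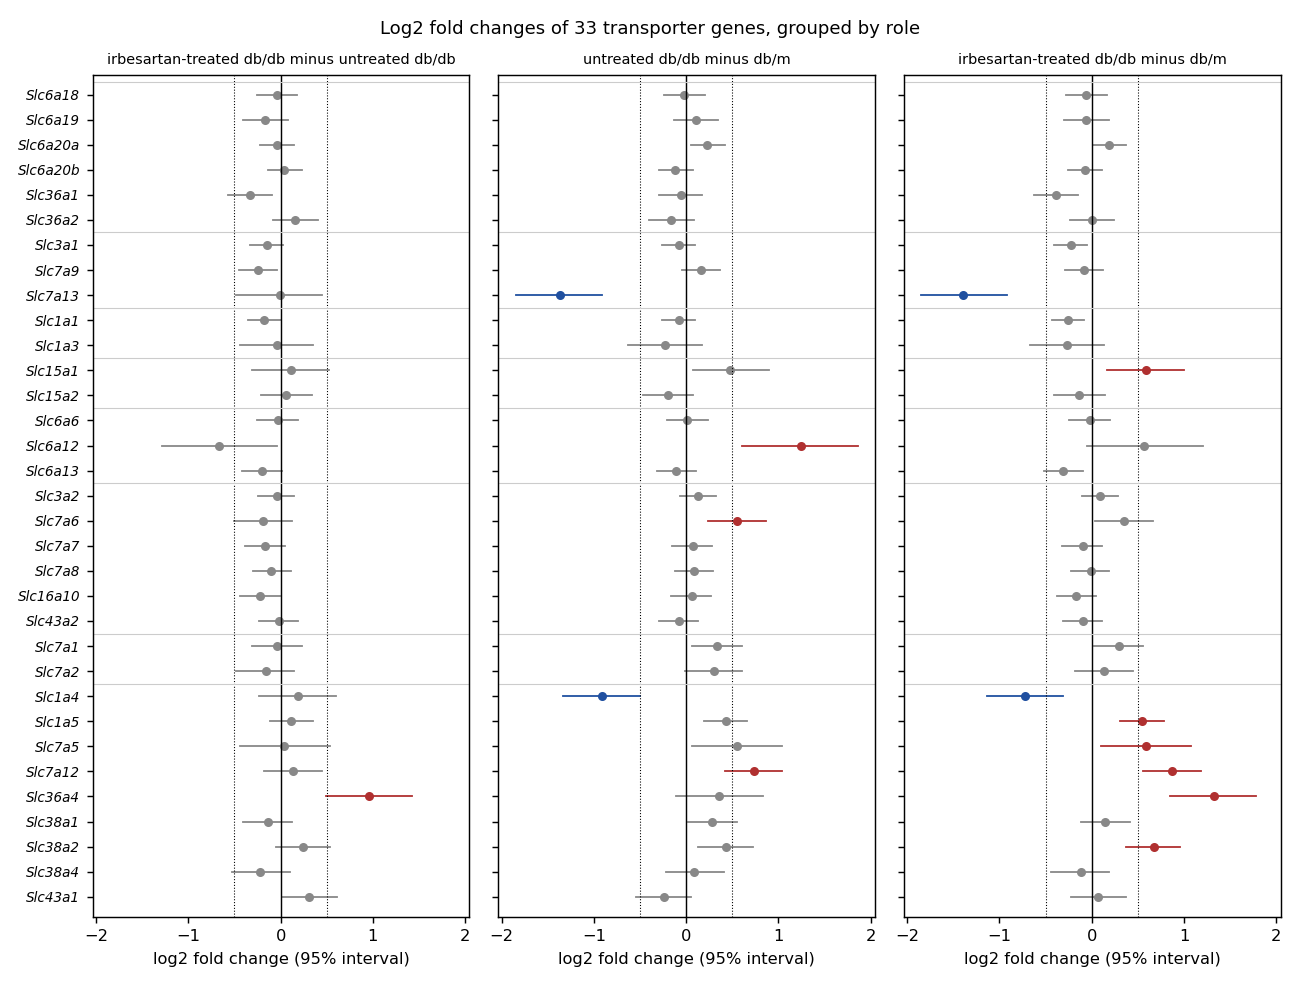
Log2 fold change (x axis) of each of the 33 transporters (y axis, ordered by role, with grey lines between roles) in irbesartan-treated minus untreated db/db, untreated db/db minus db/m, and irbesartan-treated db/db minus db/m, with 95% intervals from limma. Red and blue points are called higher (1, 3 and 6 genes) and lower (0, 2 and 2 genes), grey points are not called, and dotted lines mark 0.5 and -0.5.

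Promoter sequences are shown for the genes with the largest changes for which the RefSeq table of GRCm38.p6 has an entry. These stretches lie before listed starts, and which start the changing RNA used was not measured. Of the 33 members 24 had an entry and 9 had none, namely Slc36a2, Slc6a6, Slc6a18, Slc7a2, Slc7a5, Slc7a12, Slc7a13, Slc1a5 and Slc38a1. Each run holds the 250 bases before a start, 5′ to 3′ on the strand of the gene, and capitals mark the GC box GGGCGG, the TATA box TATAAA and the core TGGAAA of the tonicity element on either strand. They are Slc36a4 (chr9:15709488-15709737, plus strand), called higher with irbesartan, Slc38a2 (chr15:96699729-96699978, minus strand), called higher in treated db/db against db/m, Slc6a12 (chr6:121342324-121342573, plus strand, the first of 5 listed starts), called higher in untreated db/db, and Slc1a4 (chr11:20332714-20332963, minus strand), called lower in both db/db groups.
Slc36a4: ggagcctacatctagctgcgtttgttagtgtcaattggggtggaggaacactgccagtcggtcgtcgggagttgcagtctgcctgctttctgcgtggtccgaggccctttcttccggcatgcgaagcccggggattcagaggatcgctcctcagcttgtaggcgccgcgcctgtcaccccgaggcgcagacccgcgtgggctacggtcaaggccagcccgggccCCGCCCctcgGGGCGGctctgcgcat
Slc38a2: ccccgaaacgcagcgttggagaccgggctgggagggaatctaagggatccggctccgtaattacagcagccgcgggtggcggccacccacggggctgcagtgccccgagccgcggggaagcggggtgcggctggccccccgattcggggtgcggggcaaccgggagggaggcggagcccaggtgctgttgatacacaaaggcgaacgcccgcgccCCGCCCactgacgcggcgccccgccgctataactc
Slc6a12: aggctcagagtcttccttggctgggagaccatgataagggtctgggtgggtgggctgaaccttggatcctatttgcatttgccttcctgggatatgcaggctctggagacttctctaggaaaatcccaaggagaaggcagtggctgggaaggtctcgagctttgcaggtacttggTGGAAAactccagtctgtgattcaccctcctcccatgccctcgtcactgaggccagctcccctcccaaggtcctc
Slc1a4: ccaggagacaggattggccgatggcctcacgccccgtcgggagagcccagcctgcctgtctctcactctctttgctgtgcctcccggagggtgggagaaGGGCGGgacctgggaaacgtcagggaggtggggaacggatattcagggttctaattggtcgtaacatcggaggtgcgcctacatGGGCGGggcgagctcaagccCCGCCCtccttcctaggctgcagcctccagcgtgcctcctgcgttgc
The Slc36a4 promoter has a GC content of 66.0% and GC boxes that start 26 and 16 bases before the transcript start, the nearer one on the sense strand. Slc38a2 has 1 GC box at 35 bases, and Slc1a4 has 3, at 151, 67 and 47 bases. Slc6a12 has no GC box in this window and 1 TGGAAA match at 75 bases. Over the members with an entry, 17 of 24 had a GC box in at least 1 promoter, 7 had TGGAAA and 5 had TATAAA, while 32.7%, 18.6% and 12.4% of all 32851 promoters in the table hold them. The C/EBP-ATF response element TGATGNAA was found in 1 member (Slc7a7; 3.45% of all promoters), the E-box CACGTG in 2 (Slc36a1 and Slc43a1; 6.02%), the D-box TTANGTAA in 0 (2.06%) and the steroid receptor half-site AGAACA in 7 (16.1%). Members with several starts had several chances to match, and a match is a run of letters and not a binding site.

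Among the brush border carriers of neutral and imino acids, none of 6 was called in any comparison by limma, although 1, 1 and 2 of them had an unadjusted p under 0.05 in the 3 comparisons. Slc6a18 encodes B0AT3, a sodium-driven carrier of glycine and alanine, and is the member of this role with the highest mean. Its signals were 10.34, 10.56 and 10.33 in irbesartan-treated db/db, 10.40, 10.35 and 10.59 in untreated db/db, and 10.48, 10.46 and 10.47 in db/m kidneys. The 3 groups overlapped, and the 3 db/m mice were almost alike.

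The neighbouring genes Slc6a20a and Slc6a20b encode close mouse paralogs of the proline carrier SIT1. Slc6a20a measured 9.24, 9.30 and 9.24 with irbesartan, 9.24, 9.33 and 9.32 in untreated db/db and 9.03, 9.04 and 9.13 in db/m kidneys. Slc6a20b measured 10.26, 10.25 and 10.33 with irbesartan, 10.28, 10.21 and 10.22 in untreated db/db and 10.36, 10.41 and 10.29 in db/m kidneys. All 6 db/db arrays lay above the db/m arrays for Slc6a20a, while the untreated db/db arrays lay below them for Slc6a20b, and neither difference reached the fold bound. How far the probes of the array separate these paralogs is not given in the sources used here.

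Slc36a1 encodes PAT1, a proton-coupled carrier of small amino acids on lysosomes and apical membranes. It had signals of 8.55, 8.33 and 8.41 with irbesartan, 8.79, 8.92 and 8.56 in untreated db/db and 8.85, 8.80 and 8.82 in db/m kidneys. Every treated mouse lay below every mouse of the other groups, at -0.39 on the log2 scale against db/m (adjusted p = 0.0821 in limma), which is short of the fold bound. The remaining members of this role, Slc6a19 (B0AT1, the main neutral carrier) and Slc36a2 (PAT2), had group means between 10.01 and 10.18 and between 2.85 and 3.01. Slc36a2 was the only one of the 33 with a mean below the median probe set mean of 3.39.

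A light chain of the brush border cystine exchangers gave the lowest fold change of the 33 in both comparisons with db/m. Slc3a1 encodes rBAT, the heavy chain that carries both Slc7a9 (b0,+AT, cystine and dibasic amino acids) and Slc7a13 (AGT1, cystine, aspartate and glutamate in the last proximal segment) to the membrane. Slc7a13 measured 9.39, 9.42 and 9.23 in irbesartan-treated db/db, 9.71, 9.63 and 8.75 in untreated db/db, and 10.85, 10.80 and 10.56 in db/m kidneys. All db/db mice lay below all db/m mice with a wide gap, and the treated and untreated db/db mice overlapped.

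Slc7a13 averaged 9.36 ± 0.53 in untreated db/db and 10.74 ± 0.16 in db/m kidneys (SD, n = 3 each), a log2 fold change of -1.37 (SE 0.21, 2.59-fold lower, limma adjusted p = 0.0126). In irbesartan-treated db/db kidneys it averaged 9.35 ± 0.10, at -1.39 against the same db/m mice (2.62-fold lower, adjusted p = 0.00689). Irbesartan-treated minus untreated db/db was -0.01, with a 95% interval of -0.48 to 0.45 (adjusted p = 0.987), so a difference of that size either way is not excluded. The third untreated mouse, at 8.75, was the lowest of the 9, and without it the value in untreated db/db minus db/m was -1.07.

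The other light chain and the heavy chain moved little. Slc7a9 had signals of 8.62, 8.63 and 8.78 with irbesartan, 8.93, 8.99 and 8.84 in untreated db/db and 8.67, 8.86 and 8.74 in db/m kidneys. Slc3a1 had 10.73, 10.72 and 10.79 with irbesartan, 10.86, 10.96 and 10.88 in untreated db/db and 10.96, 10.97 and 11.00 in db/m kidneys. In both, the treated mice lay below the untreated db/db mice without overlap, and for Slc3a1 the difference from db/m was -0.23 (adjusted p = 0.178), under the fold bound.

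**Figure D2:**
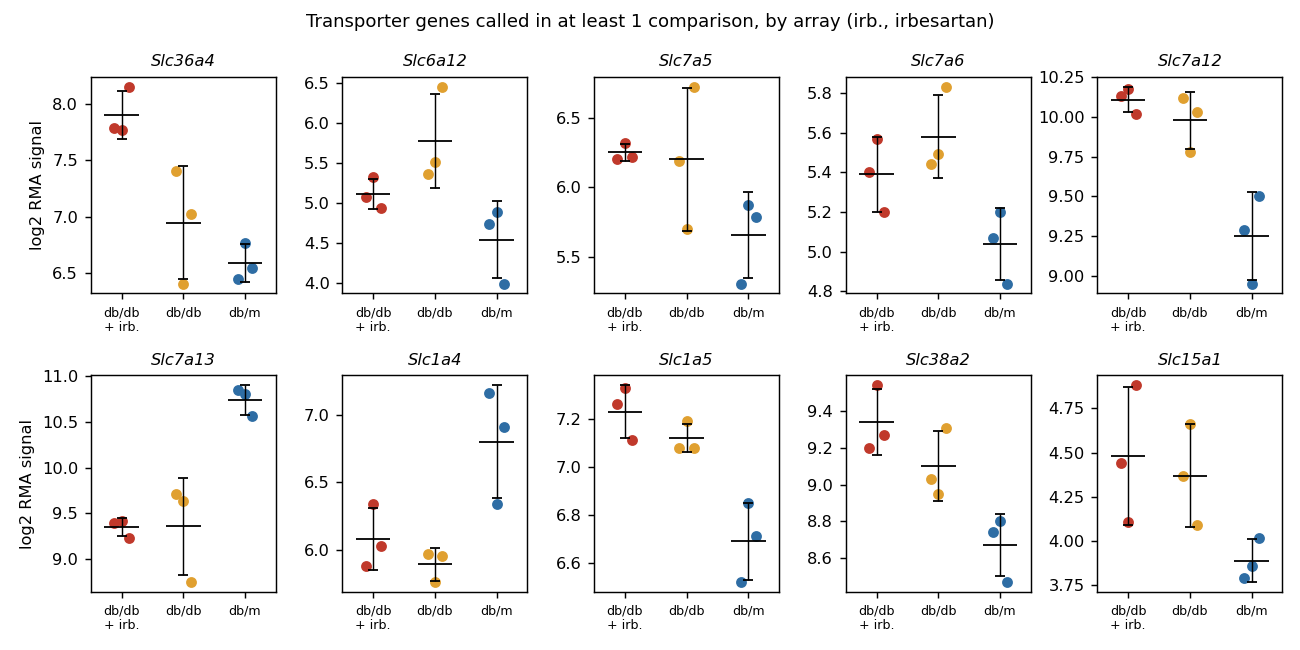
Log2 RMA signal (y axis, scaled for each gene) of the 10 transporters called in at least 1 comparison, by group (x axis), with 1 point per mouse and bars for the mean and SD of 3 mice. Slc36a4 is highest in the treated db/db mice (7.77 to 8.15), Slc7a13 is lower in both db/db groups than in db/m (10.56 to 10.85), and Slc6a12 is highest in untreated db/db mice (5.36 to 6.45).

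The acidic amino acid carriers were not called (0 of 2 in each comparison by limma; 1, 0 and 1 with an unadjusted p under 0.05). Slc1a1 encodes EAAT3, which takes glutamate and aspartate from the filtrate. Its signals were 10.06, 10.09 and 10.07 with irbesartan, 10.24, 10.24 and 10.26 in untreated db/db and 10.31, 10.38 and 10.31 in db/m kidneys. The groups were ordered without overlap and with very little spread, but the steps were small, at -0.26 for irbesartan-treated db/db minus db/m (adjusted p = 0.124). Slc1a3 (EAAT1) had group means of 3.32, 3.37 and 3.60 in treated db/db, untreated db/db and db/m kidneys.

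The oligopeptide carriers differ in affinity and place along the tubule. Slc15a1 encodes PEPT1, the low-affinity carrier of the early proximal tubule, and Slc15a2 encodes PEPT2, the high-affinity carrier of the later segments. Slc15a1 measured 4.44, 4.11 and 4.88 with irbesartan, 4.37, 4.66 and 4.09 in untreated db/db and 3.79, 3.86 and 4.02 in db/m kidneys. All db/db mice lay above all db/m mice, although the nearest pair differed little, and the db/db groups overlapped. The gene was called in irbesartan-treated db/db minus db/m (0.59, SE 0.19, adjusted p = 0.135) and not in untreated db/db minus db/m (0.48, adjusted p = 0.306). The call was lost without treated mouse 1, treated mouse 3 or db/m mouse 1 (adjusted p = 0.27, 0.382 and 0.274), and without treated mouse 3 the value was 0.39. Slc15a2 had signals of 8.08, 8.35 and 8.08 with irbesartan, 8.19, 7.98 and 8.14 in untreated db/db and 8.30, 8.11 and 8.50 in db/m kidneys, with overlap between all groups.

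Of the taurine, betaine and GABA carriers 1 of 3 was called. Slc6a12 encodes BGT1, which loads medullary cells with betaine and is known to be induced when the tissue becomes hypertonic. Its signals were 5.07, 5.32 and 4.94 in irbesartan-treated db/db, 5.36, 5.51 and 6.45 in untreated db/db, and 4.74, 4.88 and 3.99 in db/m kidneys. All untreated db/db mice lay above all treated mice and all treated mice above all db/m mice, and the most extreme arrays were the third untreated db/db mouse and the third db/m mouse.

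Slc6a12 averaged 5.77 ± 0.59 in untreated db/db and 4.54 ± 0.48 in db/m kidneys (SD, n = 3 each), a log2 fold change of 1.24 (SE 0.28, 2.36-fold higher, adjusted p = 0.0745). Without the third untreated mouse the value was 0.90 and without the third db/m mouse 0.96, and the call stood in both cases. In irbesartan-treated minus untreated db/db it was -0.67, with a 95% interval of -1.29 to -0.04 and an adjusted p of 0.382, and in irbesartan-treated db/db minus db/m it was 0.57 (adjusted p = 0.34), so neither was called. When arrays were weighted by their quality, the value in treated minus untreated db/db was -0.63 and passed the test (adjusted p = 0.222). Treated db/db minus db/m was called in other settings. These were a fit of only the 6 arrays compared (0.57, limma adjusted p = 0.236), leaving out untreated db/db mouse 3 (0.57, adjusted p = 0.19) and leaving out db/m mouse 2 (0.74, adjusted p = 0.245).

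A list of 5 other tonicity-responsive genes, chosen after these values were seen, had 3 measured members and 0 calls in all 3 comparisons (0 with an unadjusted p under 0.05 in each). One of them, the inner medullary urea transporter Slc14a2, had signals of 6.09, 6.15 and 5.41 with irbesartan, 6.14, 5.16 and 6.73 in untreated db/db and 5.73, 5.47 and 4.56 in db/m kidneys. Its highest and lowest arrays were the same 2 mice as for Slc6a12, as the plot of these genes shows. The other measured genes of the list did not share both. Nfat5 was also lowest in the third db/m mouse (7.02) but highest in the second untreated db/db mouse (7.44). Hspa4l was lowest in the third untreated db/db mouse (5.64) and highest in the second db/m mouse (6.12). The part of medulla in the samples was not tested.

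**Figure D3:**
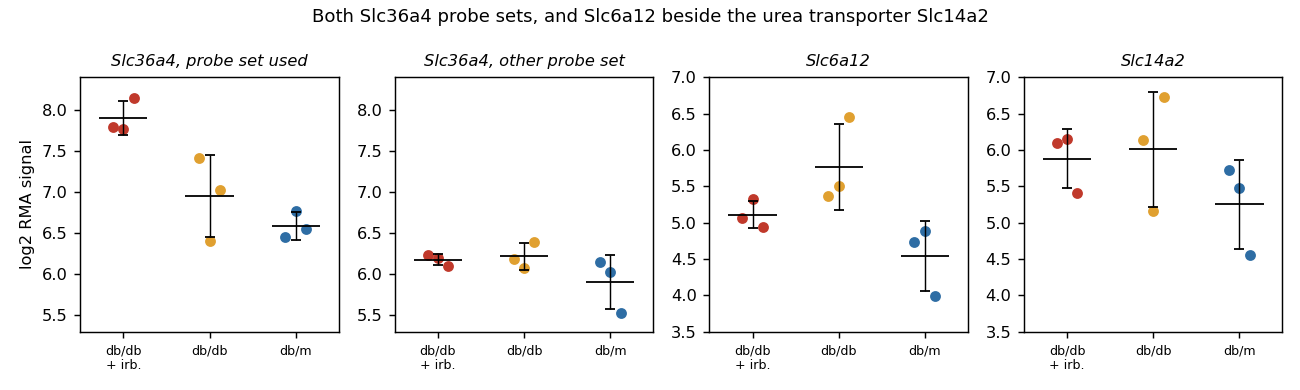
Log2 RMA signal (y axis, the same range within the left pair and within the right pair) by group (x axis) of the 2 probe sets of Slc36a4 and of Slc6a12 beside Slc14a2, with 1 point per mouse and bars for the mean and SD of 3 mice. The brighter Slc36a4 probe set separates the treated mice (7.77 to 8.15) and the dimmer one does not (6.10 to 6.23), while Slc6a12 and Slc14a2 share their highest array (6.45 and 6.73) and their lowest (3.99 and 4.56). The other measured tonicity-responsive genes, Nfat5 and Hspa4l, do not share both arrays and are not shown.

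The other carriers of this role were close in all groups. Slc6a6, the taurine carrier TauT and the member with the highest mean, had 10.52, 10.56 and 10.52 with irbesartan, 10.47, 10.62 and 10.61 in untreated db/db and 10.37, 10.68 and 10.62 in db/m kidneys, with full overlap. Slc6a13, the GABA carrier GAT2 and the genomic neighbour of Slc6a12, differed by -0.31 in irbesartan-treated db/db minus db/m (adjusted p = 0.127), under the fold bound. Its group means were 9.42, 9.62 and 9.73 in treated db/db, untreated db/db and db/m kidneys, so the neighbours did not share a pattern.

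On the basolateral side 1 of 6 genes was called, in 1 comparison. Slc7a6 encodes y+LAT2, which joins the heavy chain 4F2hc and exchanges glutamine for arginine. It measured 5.40, 5.57 and 5.20 with irbesartan, 5.44, 5.49 and 5.83 in untreated db/db and 5.07, 5.20 and 4.84 in db/m kidneys. The untreated db/db mice lay above the db/m mice without overlap (0.55, SE 0.14, 1.46-fold, adjusted p = 0.108), while the treated mice touched the db/m range (0.35, adjusted p = 0.23, under the fold bound). The call in untreated db/db was lost without the third db/db mouse (0.43) or the third db/m mouse (0.45), with array weights (0.47) and after a second quantile normalization (0.49).

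Slc7a8 encodes LAT2, the main basolateral exchanger of neutral amino acids, and had the highest mean of this role. Its signals were 11.02, 10.90 and 11.05 with irbesartan, 11.15, 11.13 and 10.98 in untreated db/db and 10.92, 11.00 and 11.09 in db/m kidneys, with overlap throughout. Slc3a2 (the heavy chain 4F2hc), Slc7a7 (y+LAT1, which passes dibasic amino acids to the blood), Slc16a10 (TAT1, aromatic amino acids) and Slc43a2 (LAT4, a uniporter of branched-chain amino acids) were not called, and their group means differed by 0.22 log2 units at most. With irbesartan against untreated db/db all 6 genes of this role had a negative log2 fold change, between -0.22 and -0.02, of which 1 had an unadjusted p under 0.05.

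The cationic carriers Slc7a1 (CAT1) and Slc7a2 (CAT2), which supply arginine, were not called (0 of 2 in each comparison by limma; 0, 1 and 1 with an unadjusted p under 0.05). Slc7a1 had 5.20, 5.52 and 5.33 with irbesartan, 5.36, 5.42 and 5.39 in untreated db/db and 5.04, 4.85 and 5.29 in db/m kidneys. The untreated db/db mice lay just above the db/m mice, and the treated mice overlapped both groups.

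Carriers of neutral amino acids outside these roles were called in 1 of 9 genes in irbesartan-treated minus untreated db/db, 2 of 9 in untreated db/db minus db/m and 6 of 9 in irbesartan-treated db/db minus db/m. The only transporter called with treatment was Slc36a4, which encodes PAT4, a carrier of proline, tryptophan and alanine found on intracellular and surface membranes. Its signals were 7.79, 7.77 and 8.15 in irbesartan-treated db/db, 7.41, 6.41 and 7.03 in untreated db/db, and 6.45, 6.77 and 6.55 in db/m kidneys. Every treated mouse lay above every other mouse, and the untreated db/db mice overlapped the db/m mice.

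Slc36a4 averaged 7.90 ± 0.21 with irbesartan and 6.95 ± 0.50 in untreated db/db kidneys (SD, n = 3 each), a log2 fold change of 0.96 (SE 0.21, 95% interval 0.49 to 1.42, 1.94-fold higher, limma adjusted p = 0.164). Against db/m kidneys (6.59 ± 0.17) the treated mice were 1.32 higher (2.49-fold, adjusted p = 0.00906), and untreated db/db minus db/m was 0.36 (adjusted p = 0.51). The call with treatment was lost without treated mouse 1, treated mouse 3 or untreated db/db mouse 2, at 1.01, 0.83 and 0.69 (adjusted p = 0.345, 0.421 and 0.347). It was also lost when all probe sets were tested together (adjusted p = 0.265), whereas the call against db/m stood in each of the 21 alternative settings.

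Slc36a4 has a dimmer probe set on the array as well, which did not share this difference. That probe set gave 6.23, 6.20 and 6.10 with irbesartan, 6.19, 6.07 and 6.39 in untreated db/db and 6.15, 6.03 and 5.53 in db/m kidneys. The groups overlapped, and treated minus untreated db/db was -0.04 (SE 0.16, adjusted p over all probe sets = 0.95). With the mean of both probe sets the gene differed by 0.46 (adjusted p = 0.278) and was not called. Which transcripts each probe set reads is not given in the sources used here.

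Slc7a12 encodes Asc-2, a light chain for small neutral amino acids that is known from mouse kidney and erythroid cells. It measured 10.13, 10.18 and 10.02 in irbesartan-treated db/db, 10.12, 9.78 and 10.03 in untreated db/db, and 9.29, 8.95 and 9.50 in db/m kidneys. All db/db mice lay above all db/m mice, and the db/db groups overlapped. Untreated db/db minus db/m was 0.73 (SE 0.14, 1.66-fold, adjusted p = 0.0397) and irbesartan-treated db/db minus db/m was 0.87 (1.82-fold, adjusted p = 0.00969). Treated minus untreated db/db was 0.13, with a 95% interval of -0.18 to 0.45 (adjusted p = 0.747).

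Slc1a4 encodes ASCT1, an exchanger of serine, alanine and cysteine. Its signals were 5.88, 6.34 and 6.03 with irbesartan, 5.97, 5.76 and 5.95 in untreated db/db and 7.16, 6.34 and 6.91 in db/m kidneys. The untreated db/db mice lay below all db/m mice, and 1 treated mouse reached the lowest db/m mouse. Slc1a4 was 1.88-fold lower in untreated db/db (-0.91, SE 0.19, adjusted p = 0.0488) and lower in treated db/db (-0.72, adjusted p = 0.0672) than in db/m kidneys. It was the only called gene of this role that fell.

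Its close relative Slc1a5 encodes ASCT2, which exchanges glutamine, and moved the other way. It had 7.26, 7.33 and 7.11 with irbesartan, 7.08, 7.19 and 7.08 in untreated db/db and 6.52, 6.85 and 6.71 in db/m kidneys. All db/db mice lay above all db/m mice, and the treated and untreated db/db mice overlapped. The gene was called in irbesartan-treated db/db minus db/m (0.54, adjusted p = 0.0224), while 0.43 in untreated db/db minus db/m had an adjusted p of 0.1 and missed the fold bound. Without treated mouse 2 or db/m mouse 1 the value was 0.49 and 0.45, under that bound. A dimmer probe set of Slc1a5 differed by 0.11 in treated db/db minus db/m (adjusted p over all probe sets = 0.79), and with the mean of both probe sets the gene differed by 0.33 and was not called.

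Slc38a2 encodes SNAT2, the sodium-driven system A carrier that brings in glutamine and alanine and is known to rise when cells lack amino acids or lose water. It measured 9.20, 9.54 and 9.27 in irbesartan-treated db/db, 9.03, 8.95 and 9.31 in untreated db/db, and 8.74, 8.80 and 8.47 in db/m kidneys. All db/db mice lay above all db/m mice, and 1 untreated mouse lay among the treated mice. It was called in irbesartan-treated db/db minus db/m (0.67, 1.59-fold, adjusted p = 0.0241) and not in untreated db/db minus db/m (0.43, adjusted p = 0.194). The neighbouring genes Slc38a1 (SNAT1) and Slc38a4 (SNAT4) were not called, with group means between 3.93 and 4.22 and between 5.92 and 6.14.

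Slc7a5 encodes LAT1, the leucine exchanger that works with 4F2hc. Its signals were 6.20, 6.32 and 6.22 with irbesartan, 6.19, 5.70 and 6.72 in untreated db/db and 5.31, 5.87 and 5.79 in db/m kidneys. The treated mice lay close together above all db/m mice, whereas the untreated db/db mice spread over the range of both other groups. Treated db/db minus db/m was 0.59 (SE 0.22, adjusted p = 0.202) and was called, and untreated db/db minus db/m was 0.55 (adjusted p = 0.325) and was not, with 0.29 when the third untreated mouse was left out. The call in treated db/db was lost without any 1 of the treated mice or without db/m mouse 1 (adjusted p between 0.347 and 0.424) and when every probe set was tested (0.32). The last gene of this role, Slc43a1 (LAT3), had group means between 4.12 and 4.44 and was not called.

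Some genes fell in db/db kidneys together with Slc7a13, or rose together with Slc7a12, that are known for their sex bias in mouse kidney, and all 9 mice were labelled male. A list of 12 male-biased genes was written from general knowledge, with earlier results of these data known, and 11 were measured. Of these, 5 were lower and 0 higher in untreated db/db against db/m, where 2.3% of all genes were called. In treated db/db against db/m 6 were lower and 0 higher, beside 3.89% of all genes called. All 11 had a negative log2 fold change in untreated db/db minus db/m. Slco1a1, an organic anion carrier, lay between 1.71 and 2.05 in all 6 db/db kidneys, treated and untreated, and at 8.23, 8.62 and 8.21 in db/m kidneys, a log2 fold change of -6.50 in untreated db/db minus db/m (adjusted p = 6.2e-10). The mean of the list was at most 8.06 in the treated and untreated db/db arrays, against 8.98 to 9.15 in db/m, and like Slc7a13 its lowest array was the third untreated mouse.

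A list of female-biased genes, also from general knowledge and less certain, had 9 of 10 measured. Of these, 3 were higher and 1 lower in untreated db/db against db/m, and 4 higher and 2 lower in treated db/db. Of all genes, 2.3% and 3.89% were called in these comparisons. The called genes that rose in untreated db/db were Abcc3 (1.93), Cyp4a14 (0.89) and Gsta4 (0.62), and Rnf24 fell by 0.93. The list was split in sign, with 5 positive and 4 negative values and a median of 0.09 in untreated db/db minus db/m, and 4 and 5 with a median of -0.07 in treated db/db minus db/m. Rnf24, Aqp4 and Cyp2d9, all negative in both comparisons, are its least certain members. That doubt rests on general knowledge and is given with the values known, and all 3 stay in the counts above. With irbesartan against untreated db/db, 1 male-biased gene was called, Cyp4a12a (0.81, adjusted p = 0.229), and 0 of the female-biased genes were (3 with an unadjusted p under 0.05). The part of sex-biased expression in the changes of Slc7a13 and Slc7a12 was not tested.

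**Figure D4:**
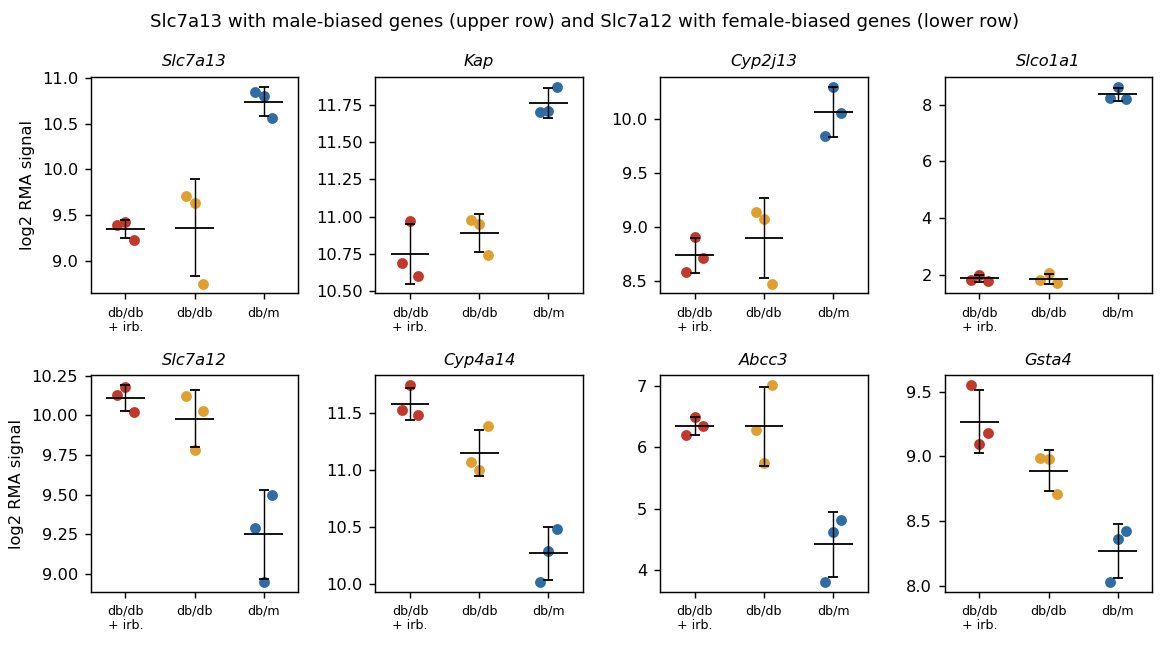
Log2 RMA signal (y axis, scaled for each gene) by group (x axis) of Slc7a13 beside 3 male-biased genes and of Slc7a12 beside 3 female-biased genes, picked from the called genes of each list, with 1 point per mouse and bars for the mean and SD of 3 mice. The upper genes are lower in both db/db groups than in db/m (Slco1a1 1.71 to 2.05 in db/db against 8.21 to 8.62) and the lower ones are higher (Slc7a12 9.78 to 10.18 in db/db against 8.95 to 9.50), while other female-biased genes, Rnf24 and Aqp4, were called lower in treated db/db against db/m and are not shown.

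Markers of tubule segments were set beside these changes, since in whole tissue fewer cells of a type and less RNA per cell cannot be told apart. Common proximal tubule markers, 8 of 10 measured, had 0 calls in each comparison (1, 1 and 2 with an unadjusted p under 0.05), and their mean lay between 11.34 and 11.47 in every array. Of 6 genes listed as markers of the early segments, 1 was lower in both comparisons with db/m, the organic anion carrier Slc22a7. It differed by -3.34 in untreated db/db (limma adjusted p = 0.0172). The other 5 were not called, and each had a positive log2 fold change in untreated db/db minus db/m. The place of Slc22a7 along the tubule was not checked here, so its fall is not read as one of the early segments. Of 7 measured markers of 8 of the last segment, where Slc7a13 is made, Cyp7b1 (-2.85) and Atp11a (-1.15) fell in untreated db/db and Slc5a1 rose by 0.52, while in treated db/db against db/m 2 fell and 0 rose. The mean of the last-segment list ran from 9.11 to 9.16 with irbesartan, from 9.07 to 9.08 in untreated db/db and from 9.51 to 9.71 in db/m kidneys. That gap in the mean came from Cyp7b1 and Atp11a, since over the 7 markers the median log2 fold change was -0.16 in untreated db/db minus db/m and -0.02 in treated db/db minus db/m, with 3 positive and 4 negative in each.

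Markers of other cells gave between 0 and 3 calls per list and comparison, beside 1.01%, 2.3% and 3.89% of all genes in the 3 comparisons. In lists this short a single call is a larger share than that. Distal nephron and collecting duct markers, 10 measured, gave 1 higher and 0 lower in each comparison, and their mean was above that of db/m in all db/db arrays (9.38 to 9.40 with irbesartan and 9.34 to 9.50 in untreated db/db, against 9.06 to 9.15 in db/m). Podocyte (4 of 6 measured) and endothelial (6) markers gave 0 calls in all 3 comparisons by limma (0, 1 and 1, and 0, 0 and 2, with an unadjusted p under 0.05). Of 9 leukocyte markers 0, 1 and 3 were called, each lower, of 8 stromal markers 1, 0 and 1, each lower, and of 9 tubule injury markers Krt8 was lower with irbesartan against untreated db/db and Krt19 higher in untreated db/db against db/m. The leukocyte mean ran from 3.67 to 4.32 with irbesartan and from 4.10 to 4.21 in db/m kidneys, and in untreated db/db it was 3.92, 4.03 and, in the third mouse, 4.98. What part any of these cells has in the transporter values was not tested.

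A list of brush border peptidases, cytosolic peptidases and membrane partners of the carriers had 13 measured genes of 16. In both comparisons with db/m 3 were called, 1 higher and 2 lower each time, beside 2.3% and 3.89% of all genes. With irbesartan against untreated db/db 0 were called (2 with an unadjusted p under 0.05 in limma). The membrane-bound aminopeptidase P gene Xpnpep2 was higher by 1.20 in untreated db/db kidneys (against db/m, adjusted p = 0.00745). Cndp2, a cytosolic dipeptidase, was lower by a log2 fold change of -0.84 (adjusted p = 0.00296), and so was the meprin subunit Mep1b, at -0.62 (adjusted p = 0.19). Cltrn, the collectrin that brings Slc6a19 to the brush border, had group means of 10.82, 10.89 and 10.85 in treated db/db, untreated db/db and db/m kidneys.

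Of other amino acid and peptide transporters, 33 measured genes of 35, none was called in any comparison by limma (10, 2 and 8 with an unadjusted p under 0.05). Their median log2 fold change was 0.06, 0.03 and 0.05. Many of them were dim, with 10 of the 33 below the median probe set mean of 3.39 and a list mean of 4.78 to 4.94 over the arrays, so this count says little beside that of the 33 members, whose mean was 7.71 to 7.84. Targets of ATF4, the factor that raises Slc7a5, Slc38a2 and others when amino acids are short, had 24 of 26 measured, with 0 called with irbesartan (4 with an unadjusted p under 0.05), 1 higher in untreated db/db minus db/m and 1 lower in treated db/db minus db/m. These were the stress-induced gene Nupr1 (0.84, adjusted p = 0.0627) and the transsulfuration enzyme gene Cbs (-0.87, adjusted p = 0.0364). Calls over all genes were 1.01%, 2.3% and 3.89% in the 3 comparisons. Over the ATF4 list the median log2 fold change was 0.10, 0.00 and 0.12, with 14, 12 and 18 of 24 genes positive in the 3 comparisons.

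The core clock differed between groups, and clock-controlled genes can follow the hour of collection, which is not in the labels. Of 16 measured clock genes of 18, 3 were higher and 4 lower with irbesartan against untreated db/db (1.01% of all genes were called). Against db/m, 3 were higher and 2 lower in untreated db/db (2.3% of all genes), and 4 higher and 2 lower in treated db/db (3.89%). Arntl, which encodes BMAL1, measured 6.53, 7.06 and 6.73 with irbesartan, 4.69, 4.71 and 5.48 in untreated db/db and 5.41, 5.59 and 6.88 in db/m kidneys, so the third db/m mouse lay within the treated range for this gene. For Nr1d1, which encodes REV-ERBα, the same mouse was the highest of all at 9.31, against 6.81 to 7.27 in the treated mice. For Ciart it measured 5.72, against 5.49 to 5.79 in the treated mice and 7.38 and 7.01 in the other db/m mice. For Cry1 it measured 4.13, against 5.08 to 5.39 in the treated mice. Its signals were thus near the treated group for some clock genes and apart from it for others. The part of the clock in the transporter values was not tested.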

How the data were processed

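Kidney RNA of 9 male mice, 3 per group, was measured on 1 array each. The authors summarized the scans by RMA in Affymetrix Expression Console (versions not given in the sources used here), and the deposited values are log2 signals, 1 for each of 41345 probe sets. No depth applies to arrays, and their number limits the precision. Values were used as deposited, with 0 columns left out. Symbols came from the platform annotation, in which 23521 probe sets had a single symbol, 1820 had several and were not named, and 16004 were not listed. The arrays correlated at 0.984 to 0.994, with medians of 3.36 to 3.45.

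The 3 group means were fitted over all arrays without covariates by limma 3.58.1 under R 4.3.3 (6 residual and 5.05 prior degrees of freedom), and p-values were adjusted over 22180 genes. The thresholds are those of the study, with its bound on the fold change read as a lower bound. Errors are SDs over mice or standard errors of the fit. The fit was tested on simulated data. Mice are separate animals and groups share only replicate numbers.

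By rule, values in every array are given for called members, for the member with the highest mean of each role, for chosen pairs and for members whose groups do not overlap and differ by over 0.5. The members and all lists of genes were chosen with earlier results of these data known, and the tonicity list after these values were seen. Promoters are from RefSeq, build GRCm38.p6, and figures were drawn in Python 3.11.15 (matplotlib 3.10.9). Alternatives were other fits, filters, normalizations, probe set rules and thresholds, a replicate block, and leaving out each array. Urine, histology and qRT-PCR were not analysed here.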

Additional observations from a re-analysis of the deposited data

How the results depend on the processing

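Each result was recomputed under 21 alternatives. Of the transporters, 1 was called in irbesartan-treated minus untreated db/db. This count was 0 in a one-way ANOVA, 0 with every probe set tested, 0 with probe sets averaged per gene and 0 at an adjusted p under 0.05. It was 2 with array weights, and 0 to 1 when 1 array was left out. In untreated db/db minus db/m the 5 calls became 0 in the ANOVA and 3 at an adjusted p under 0.05, and ranged from 4 to 7 with 1 array left out. In irbesartan-treated db/db minus db/m the 8 calls became 5 in the ANOVA, 5 at an adjusted p under 0.05, 13 with no bound on the fold change, and 5 to 9 with 1 array left out. The ANOVA does not moderate variances over genes, and over all genes it called 0, 5 and 511 in these comparisons, where limma called 223, 510 and 862. It was run here on the 2 groups of each comparison, with 1 probe set per symbol. The study also names a one-way ANOVA, but it reported differentially expressed genes with irbesartan, so this run does not reproduce its analysis. Small differences changed sign in treated minus untreated db/db: Slc7a5 was -0.01 after median centring of each array and ran from -0.21 to 0.30 with 1 array left out, Slc7a13 from -0.32 to 0.16 and Slc15a1 from -0.10 to 0.29. Slc36a1 ran from -0.15 to 0.03 in untreated db/db minus db/m. The cause was not tested. With the replicate number as a replicate block the counts were 1, 5 and 8, with no call changed; same-numbered arrays deviated from their group means with correlations of -0.0766 to 0.042, so they share only a number. Median centring moved the share of higher calls over all genes in treated minus untreated db/db to 35.3%, against 57.4%, and left the split of the transporters as it was. Members not called in a comparison moved by at most 0.34 there under any of these alternatives.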
